A study of Homo sapiens with 8 samples.

Results

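Interferon-stimulated genes (ISGs) are the genes that cells switch on when an interferon reaches its receptor. A list of 49 well-known ISGs was taken by gene name, and 44 of them had a counted region of their own among the 20165 gene regions of the series. The other 5 were not measured here: IFIT2, IFITM1 and IFITM2 had fewer than 30 counted coding bases, IRF9 shared its region with another gene, and no region was matched to IFIH1. All 44 measured genes passed the filter of at least 10 counts summed over the 4 libraries of a comparison.

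The 8 libraries were ribosome footprints (Ribo-seq, in which the mRNA pieces covered by ribosomes are sequenced) from OVCAR3, a human ovarian carcinoma cell line, in 4 groups of 2. RACK1-WT and RACK1-Mut cells carried a doxycycline-inducible short hairpin RNA against endogenous RACK1, a scaffold protein of the small ribosomal subunit, together with an inducible HA-tagged RACK1 that was wild type or had its MARylated acidic residues replaced. Both groups received 1 µg/ml doxycycline for 48 h. siControl and siTARG1 cells were transfected for 48 h with 30 nM of a control siRNA or an siRNA against OARD1, which encodes TARG1, an enzyme that removes mono(ADP-ribose) from proteins. The RACK1 cells were stably transduced and drug-selected, and the siRNA cells were not. Per the study's methods the sequencing was repeated on independent biological samples. RNA-seq of the same samples was not used here, so a change in footprints can be a change in mRNA, in its translation, or in both.

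Type I and type III interferons act through receptor-bound JAK kinases, which phosphorylate STAT proteins. STAT2, a partner STAT and IRF9 form a complex that binds the interferon-stimulated response element (ISRE) in the promoters of ISGs, whereas STAT dimers bind a separate element called GAS. The induced proteins sense viral RNA, degrade it, block its translation, tag proteins with the ubiquitin-like ISG15, or hold virus particles at the membrane.

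In the RefSeq promoter table (build GRCh38.p14, 250 bases before to 50 after each start) 40 of the 49 ISGs had an entry. The ISRE core (TTTC, any 2 bases, TTTC), searched on both strands, was present for 25 of these 40 genes (62.5%), against 4.38% of 27303 genes in the table. The GAS motif TTCNNNGAA, which reads the same on both strands and may overlap the ISRE core, was present for 14 of the 40 (35%), against 9.38% of all genes. Among the genes called in either comparison, ADAR and STAT2 held neither motif in their entries, and TRIM22 is named without an entry. A match describes the letters and does not show that a factor was bound. Windows of 30 bases are shown for the called genes whose core lay upstream of the start and whose window had a single match near the gene in GRCh37, with the core in capitals, read along the gene's strand.
ISG15: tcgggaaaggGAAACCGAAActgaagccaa
IFI6: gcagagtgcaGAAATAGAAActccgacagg
IFI27: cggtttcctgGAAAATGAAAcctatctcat
OAS3: agaaagaaacGAAACTGAAAgcagggaatt
HERC5: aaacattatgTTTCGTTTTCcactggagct
IFIT1: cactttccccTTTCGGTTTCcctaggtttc
BST2: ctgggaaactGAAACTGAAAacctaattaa
In GRCh37 these windows lie at chr1:948760-948789 (ISG15), chr1:27998777-27998806 (IFI6), chr14:94576977-94577006 (IFI27), chr12:113376126-113376155 (OAS3), chr4:89378186-89378215 (HERC5), chr10:91152267-91152296 (IFIT1) and chr19:17516544-17516573 (BST2). IFI6 and BST2 are on the minus strand and the other 5 on the plus strand.

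Coding counts ranged from 3100947 to 6604190 per library, and the RACK1-Mut libraries (4174707 and 3798750) were shallower than the RACK1-WT libraries (6604190 and 6174010). The targeted genes moved as labelled in the siRNA experiment: OARD1 had 121.3 and 69.14 normalized counts in siControl and 5.827 and 6.747 in siTARG1. The RACK1 count joins the endogenous and the tagged transcript. It fell from 23460 ± 183 to 17510 ± 333 normalized counts (SD, n = 2) in RACK1-Mut, with a DESeq2 adjusted p of 1.34e-08. RACK1-Mut against RACK1-WT therefore joins the replaced residues with a lower RACK1 footprint level, and the 2 cannot be told apart. RACK1 also fell in siTARG1, from 12670 ± 502 to 10650 ± 871 (SD, n = 2). That log2 fold change was -0.25, with a DESeq2 adjusted p of 0.00297. Epithelial marker genes took 1.16 to 1.22% of coding counts in 6 libraries and 0.724 and 0.841% in the siTARG1 libraries, and 7 to 10 of 12 leukocyte markers were at 0 in every library.

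ISG footprints were measured in these cells without any added interferon. The 44 genes took 0.976 to 1.15% of coding counts in the siRNA libraries and 0.456 to 0.535% in the RACK1 libraries. Without LGALS3BP, the ISG with the most counts, the shares were 0.717 to 0.868% and 0.296 to 0.364%. Scaled by counted coding length and by the coding total of the library (coding RPKM), the median gene stood at 31.3 in RACK1-WT, 27.2 in RACK1-Mut, 63.0 in siControl and 78.6 in siTARG1. IFI6, a small mitochondrial and endoplasmic reticulum membrane protein, had a mean coding RPKM of 983.6 in RACK1-WT and 2376 in siControl, and ISG15 had 787 and 2067. LGALS3BP, a secreted glycoprotein, had 980.8 and 1548. IFITM3, which hinders the entry of enveloped viruses, ranked first, but on only 41 counted coding bases. At the low end SAMD9L stood at 2.136 in RACK1-WT and 5.326 in siControl. The level in siControl exceeded that in RACK1-WT for 43 of 44 genes, with a median ratio of 2.01 against 1.01 over all genes. IFI44L had the largest ratio, 4.60, and IFI27 was the exception at 0.82. The cells of these groups differed in transduction, doxycycline and transfection, which cannot be told apart.

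**Figure D1:**
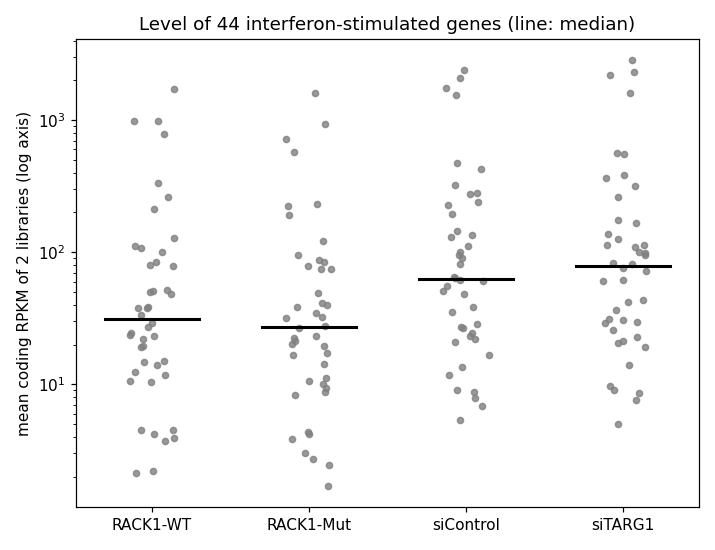
Level of the 44 ISGs in each group, as the mean coding RPKM of 2 libraries on a log axis; each point is a gene and the line is the median. The medians are 31.3, 27.2, 63.0 and 78.6 from left to right.

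In RACK1-Mut against RACK1-WT, ISG15, IFI6 and IFI27 fell, and no ISG rose. Of all 12520 genes tested 10 were called at a DESeq2 adjusted p under 0.05, each of them lower (0.0799%), and 3 of these 10 were ISGs. The log2 fold change was below 0 for 41 of 44 ISGs, against 50.4% of all genes, with a median of -0.26 against -0.0017 over all genes. Both RACK1-Mut libraries lay below both RACK1-WT libraries for 32 of 44 ISGs, against 18.9% of all genes, and above them for 0, against 18.7%. At an unadjusted p under 0.05, 13 ISGs were lower (0.998% of all genes) and 0 were higher (0.639%). edgeR called 5 ISGs, each lower (0.24% of all genes in either direction). With any 1 of the 4 libraries left out, no ISG call held in DESeq2, while 38 to 42 of 44 stayed below 0. The list was described by counts and received no test of its own. Over the 38 ISGs that averaged 50 or more normalized counts, the median log2 difference between libraries was -0.01 within RACK1-WT and 0.07 within RACK1-Mut. Replicate 2 was below replicate 1 for 22 of these ISGs in RACK1-WT and for 10 in RACK1-Mut. The median ran from -0.26 to -0.19 over the 4 pairs between the groups.

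ISG15, the ubiquitin-like modifier, had 1990 and 1987 normalized counts in RACK1-WT and 1408 and 1471 in RACK1-Mut. Its level was 72.4% of control, a log2 fold change of -0.47 ± 0.08 (SE) with a DESeq2 adjusted p of 6.79e-05. The enzymes that attach or remove ISG15 stood lower in both mutant libraries without passing the test: HERC5, the main ISG15 ligase, had 241.9 and 221.4 in RACK1-WT and 170.6 and 175.3 in RACK1-Mut, and USP18, which removes ISG15 and restrains the interferon receptor, had 136 and 115.2 against 93.05 and 98.87. For all 6 genes of this group the libraries did not overlap, against 18.9% of all genes in the lower direction. The group median was -0.37, and TRIM25 counted among the 6 at only -0.05.

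IFI6 had 2066 and 2097 normalized counts in RACK1-WT and 1414 and 1560 in RACK1-Mut, a log2 fold change of -0.49 ± 0.09 (SE) with a DESeq2 adjusted p of 5.93e-05. IFI27, a related small membrane protein, had 537.2 and 564.6 against 367.4 and 384.9, a log2 fold change of -0.55 ± 0.13 with an adjusted p of 0.0330 in the same DESeq2 fit. For each of these genes the groups did not overlap, as for 18.9% of all genes in the lower direction. XAF1, a pro-apoptotic ISG, had under 20 normalized counts in each of these libraries and is not interpreted.

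The OAS enzymes make 2′-5′ oligoadenylate, which activates RNase L. OAS2 had the lowest log2 fold change among the ISGs that averaged 50 or more normalized counts: 161.5 and 151.2 in RACK1-WT and 83.51 and 96.24 in RACK1-Mut, -0.80 ± 0.24 (SE), with an adjusted p of 0.619 in DESeq2 and 0.00231 in edgeR. OAS1, OAS3 and OASL had log2 fold changes of -0.32, -0.34 and -0.36, none past the test. Their groups did not overlap, as for 18.9% of all genes in the lower direction. MX1, a GTPase that traps viral nucleocapsids, had 1069 and 949.4 against 707.4 and 781.8, with an adjusted p of 0.0683 in DESeq2 and 0.00184 in edgeR. The 3 measured IFIT genes, which bind viral RNA ends, ranged from -0.27 to -0.14.

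The RNA sensors had a group median of -0.10, and the signalling and transcription factors also -0.10, against -0.26 over all 44 ISGs. This was not particular to them, as the effectors IFITM3 and BST2 had a group median of -0.11. The RNA sensors RIGI, DHX58 and DDX60 had log2 fold changes of -0.10, -0.10 and -0.26. Among the signalling and transcription factors, STAT2 was at -0.09 and IRF1 at 0.02, and IRF7, which amplifies interferon production, was the lowest at -0.51 with a DESeq2 adjusted p of 0.9999. Of the other effectors, ADAR, the RNA-editing deaminase, was at -0.02 and TRIM21, an antibody receptor with ligase activity, at 0.01.

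Of the other interferon-pathway genes, 1 of 102 tested was called, lower, and the median log2 fold change was -0.06, with 64 of 102 below 0. The measured receptors had a median of 0.11 and the inhibitors, such as SOCS3 and PTPN1, 0.04; none of either group passed the DESeq2 test, and 0 did at an unadjusted p under 0.05 or in edgeR. The further induced effectors, such as GBP1 and B2M, had a median of -0.12, with 41 of 59 below 0. Both RACK1-Mut libraries lay below both RACK1-WT libraries for 27 of these 59 (45.8%, against 18.9% of all genes). They lay above for 2 (3.39%, against 18.7%). The nucleic acid sensing genes had a median of -0.06, as did the receptor kinases, STATs and IRFs. The ligand genes had too few counts to be tested. Mitochondrially encoded genes moved in the other direction, with a median log2 fold change of 0.47 in RACK1-Mut. Of these 13 genes, 0 were called in DESeq2 and 4 in edgeR (0.24% of all genes in either direction). The groups did not overlap for 4, in the higher direction (18.7% of all genes). They took 0.0823 and 0.143% of coding counts in RACK1-WT and 0.118 and 0.196% in RACK1-Mut, so the shares overlapped. Their part in the result was not tested.

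**Figure D2:**
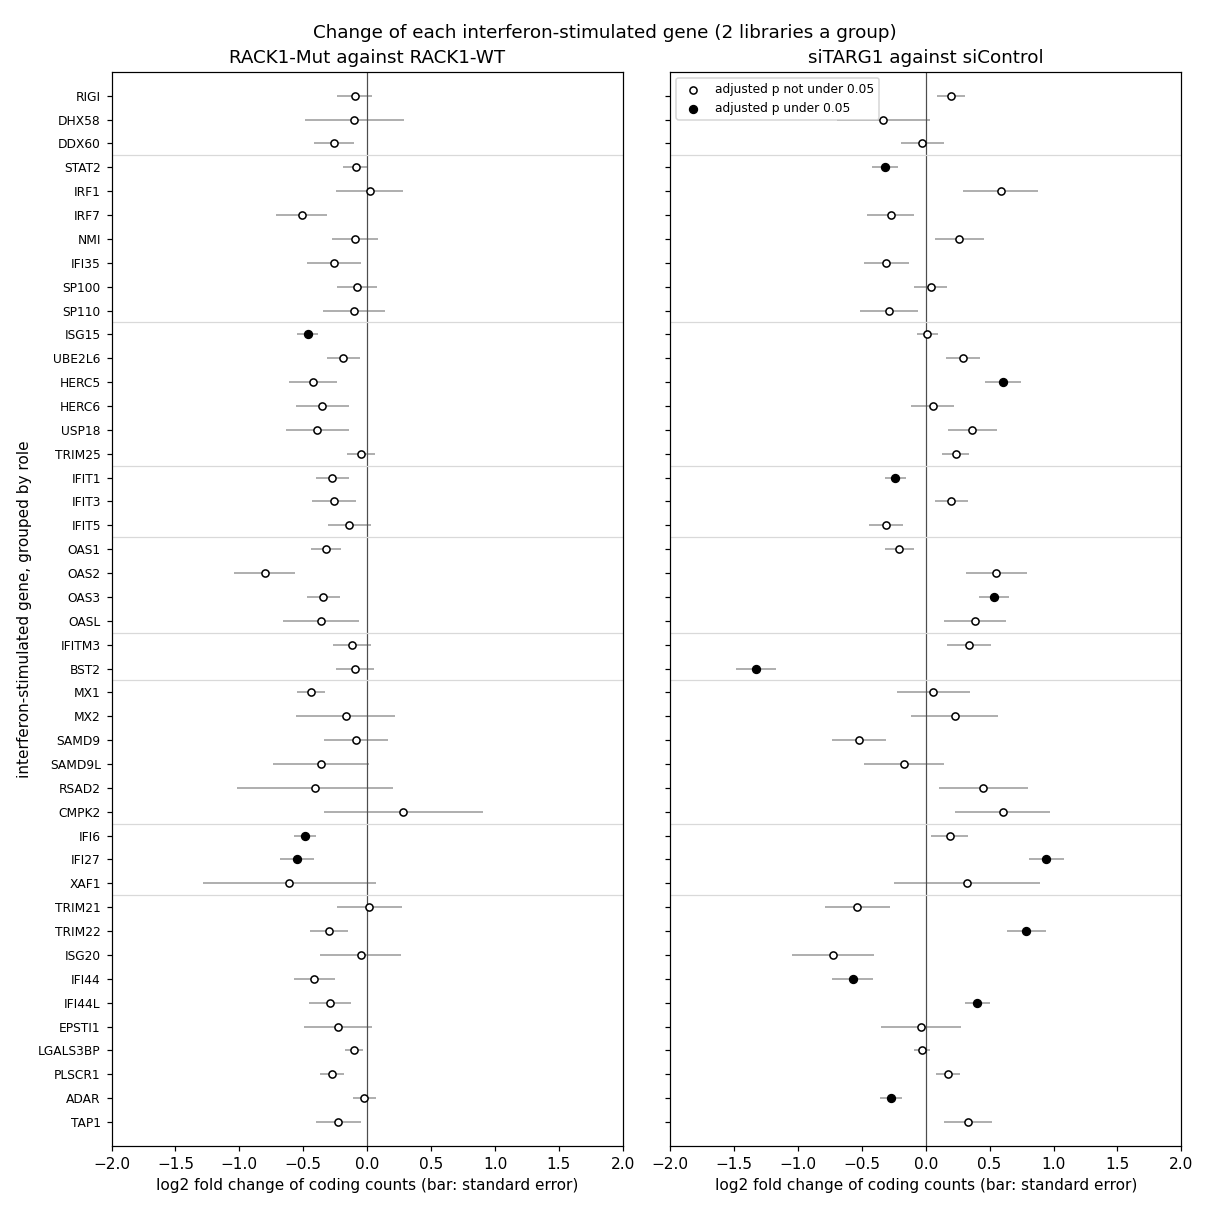
Log2 fold change of each of the 44 ISGs, grouped by role, in RACK1-Mut against RACK1-WT (left) and siTARG1 against siControl (right), with standard errors as bars and filled points for a DESeq2 adjusted p under 0.05. On the left 41 of 44 points lie below 0; on the right 26 lie above and 18 below.

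In siTARG1 against siControl the ISGs went both ways. IFI27, TRIM22, HERC5, OAS3 and IFI44L rose, and BST2, IFI44, STAT2, ADAR and IFIT1 fell. These 10 of 44 compare with 1974 of 12056 genes called (16.4%), of which 7.18% of genes tested were higher and 9.19% lower. Among genes averaging 50 or more normalized counts, 778 of 8148 were called higher and 1018 lower, beside 5 and 5 of 43 ISGs. At that level the share of ISGs called in DESeq2 was near that of all genes. With edgeR 20 ISGs were called (28.8% of all genes), 11 higher and 9 lower. Of the 8148 genes, edgeR called 1340 higher and 1591 lower. The median log2 fold change was 0.12 against 0.0031 over all genes, and 26 ISGs were above 0 (50.4% of all genes). Fewer ISGs were called in DESeq2 when any 1 library was left out. Groups did not overlap for 19 ISGs in the higher direction (31.2% of all genes) and 13 in the lower (31.4%). Beside these changes, 11 of 13 mitochondrially encoded genes were below 0 in siTARG1. Their median log2 fold change was -0.27, and 4 were called lower in DESeq2. Of 11 epithelial markers, 5 were called lower, among them KRT8 at -1.03 and KRT18 at -1.24 on the log2 scale. Of the same 11, 1 was called higher and 4 were above 0, up to 0.47. The part of both groups in the result was not tested.

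IFI27 had 350.7 and 308.7 normalized counts in siControl and 642.6 and 629.7 in siTARG1, a log2 fold change of 0.94 ± 0.14 (SE) with a DESeq2 adjusted p of 6.63e-10. TRIM22, an antiviral ubiquitin ligase, had 390.2 and 298 against 611.8 and 582.5, 0.79 ± 0.15 with an adjusted p of 6.09e-06. HERC5 had 480.8 and 395.8 against 696.7 and 638.7. In each of these genes both siTARG1 libraries were above both siControl libraries, as they were for 31.2% of all genes.

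OAS3 had 871.9 and 709.3 normalized counts in siControl and 1160 and 1138 in siTARG1, a log2 fold change of 0.54 with a DESeq2 adjusted p of 6.49e-05. IFI44L, whose product is a cytosolic protein related to IFI44, rose by 0.40, whereas IFI44 itself had 558.1 and 437.5 against 325.5 and 347.5 and fell by 0.57, with adjusted p of 0.00062 and 0.00338 in DESeq2. OAS1, a neighbour of OAS3 in function, was at -0.21 and did not pass the test.

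BST2 (tetherin), which holds budding virus at the cell surface, had the largest change of the list: 706.6 and 596 normalized counts in siControl and 233.1 and 290.1 in siTARG1. Its level was 39.9% of control, a log2 fold change of -1.33 ± 0.16 (SE) with a DESeq2 adjusted p of 3.59e-15. STAT2, ADAR and IFIT1 fell by 0.32, 0.27 and 0.24. ISG15 was at 0.01, with 4099 and 3512 against 3980 and 3705, so its groups overlapped.

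The siControl libraries differed from each other on these genes. Over the 43 ISGs that averaged 50 or more normalized counts, siControl 2 was lower than siControl 1 for 40, with a median log2 difference of -0.19. Between the siTARG1 libraries, replicate 2 was lower than replicate 1 for 28, with a median of -0.06. Exon counts were 41.4% of alignments in siControl 1 and 28.8% in siControl 2. They were 37.1% in siTARG1 1 and 27.8% in siTARG1 2. Without siControl 1 the median log2 fold change of the 44 ISGs was 0.25, and without siControl 2 it was -0.04, so the direction of the median rested on which control library was used. MX1 showed the same split, with 2098 in siControl 1 and 1410 in siControl 2 against 1874 and 1784 in siTARG1.

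Of the other interferon-pathway genes, 17 of 103 tested were called in siTARG1, 8 higher and 9 lower, beside 16.4% of all genes called, so the list's share was near that of all genes. GBP1, GBP2 and GBP5, interferon-induced GTPases, fell by 0.65, 1.06 and 1.15. B2M, the light chain of MHC class I, rose by 0.54 and PSMB9, an immunoproteasome subunit, by 1.20. STING1, the adaptor of cytosolic DNA sensing, fell by 0.78, LAP3, an aminopeptidase, fell by 0.58 and STAT5B rose by 1.28.

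**Figure D3:**
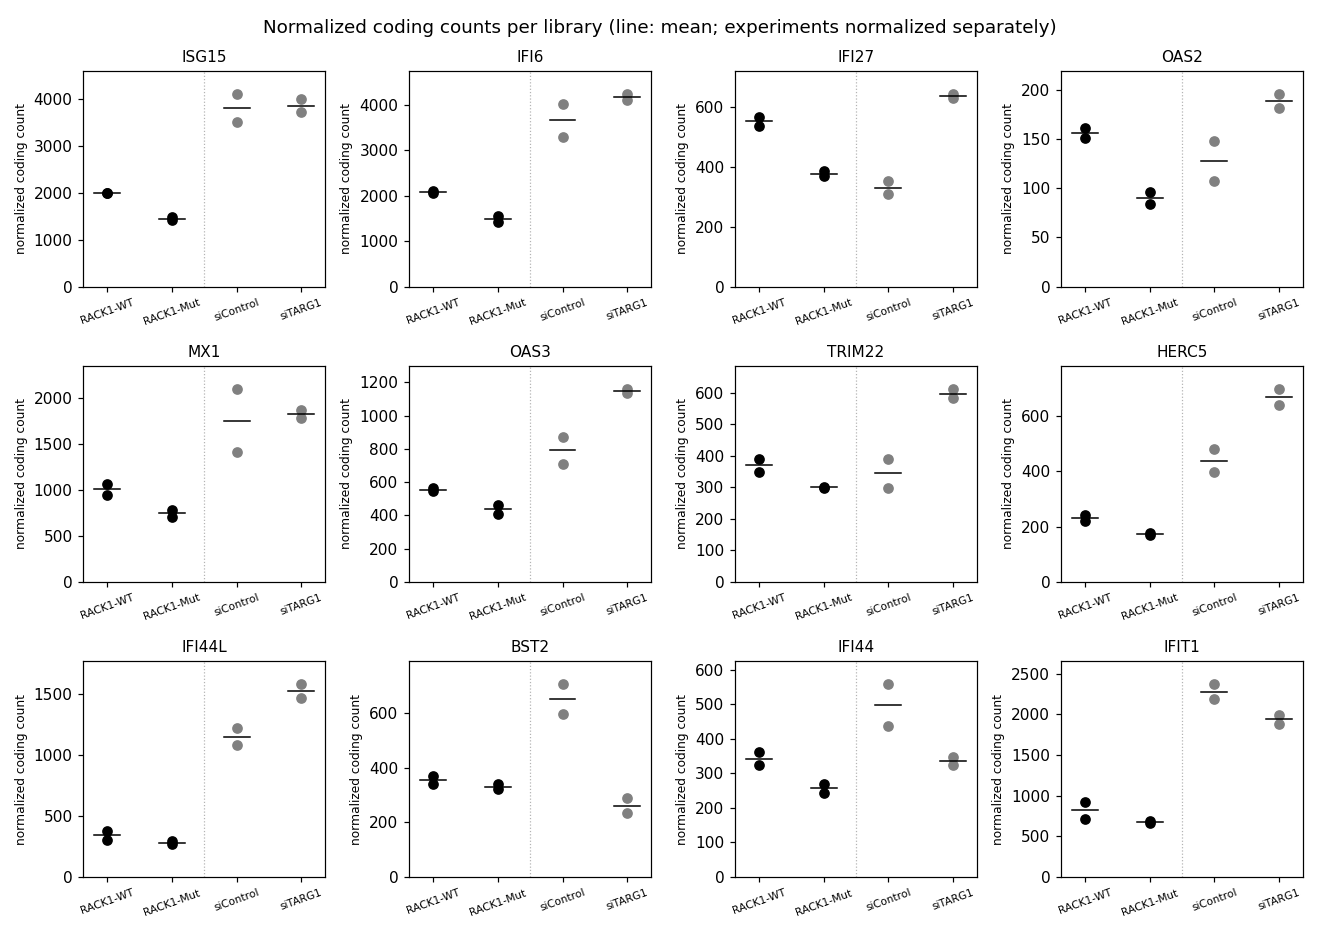
Normalized coding counts of 12 ISGs in each of the 8 libraries, with a line at the mean of 2 libraries; the experiments were normalized separately, so levels are compared within an experiment. ISG15, IFI6 and IFI27 are lower in both RACK1-Mut libraries, and BST2 is lower in both siTARG1 libraries.

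The difference between the experiments was tested directly as an interaction over the 8 libraries. At a DESeq2 adjusted p under 0.05, 12 of 44 ISGs differed (12.3% of all 12955 genes), 11 with a higher change in siTARG1 than in RACK1-Mut (5.43%) and 1, BST2, with a lower one (6.91%). With edgeR 17 ISGs differed (20.8% of all genes). Among genes averaging 50 or more normalized counts, DESeq2 called 657 of 8685 with a higher change and 838 with a lower one, beside 11 and 1 of 41 ISGs. The largest difference was that of IFI27, 1.5 ± 0.17 on the log2 scale (SE), with an adjusted p of 5.25e-16. OAS2 differed by 1.36, TRIM22 by 1.09, HERC5 by 1.03, OAS3 by 0.89, USP18 by 0.76, IFI44L by 0.70, IFI6 by 0.68, ISG15 by 0.49, UBE2L6 by 0.48 and PLSCR1 by 0.46. For IFI6 and ISG15 the change in RACK1-Mut was past the test and that in siTARG1 was not, and the changes differed in the interaction over all 8 libraries. The siTARG1 side rests on 2 siControl libraries that differed, siControl 2 being lower for 40 of 43 ISGs. How the interaction changes without either of them is not given here.

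The measured ISGs with and without the ISRE core were set side by side as a description, for the 37 of 44 with a promoter entry. Those left out included OAS2, IRF7 and DHX58, at log2 fold changes of -0.80, -0.51 and -0.10 in RACK1-Mut. In RACK1-Mut the median log2 fold change was -0.26 over the 23 measured ISGs with a core, 22 of them below 0, and -0.10 over the 14 without one, 12 of them below 0. In siTARG1 the medians were 0.06 and 0.05.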

How the data were processed

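Footprints left by RNase I were aligned by the authors with Bowtie 1.1.2 and TopHat2 2.1.1 to hg19/GRCh37 with GENCODE 24. Per the file headers, Plastid counted reads of 26 to 36 nucleotides, and the deposited counts per gene region leave out positions shared between genes. The deposited RPKM values were used only to find the alignments behind them, and coding RPKM was recomputed from the coding counts. Whether duplicates were collapsed by molecular identifier is not given in the sources used here. Regions were named through GENCODE 44 transcripts, which gave a symbol to 19612 of 20165 (97.3%). The ISG15 region had no transcript in that annotation and was named by hand from its transcript identifier. Each comparison was fitted in DESeq2 1.42.0 (R 4.3.3) on all genes with at least 10 counts in sum, called at an adjusted p under 0.05 after Benjamini-Hochberg adjustment, with edgeR 4.0.16 as an alternative. The interaction used all 8 libraries. On data simulated for RACK1-Mut against RACK1-WT (12513 genes), DESeq2 recovered 12 of 66 genes changed 1.5-fold, 37 of 70 changed 2-fold and 63 of 64 changed 4-fold. The simulated dispersion was set to 0.02 for every gene and was not estimated from these libraries. These recoveries hold for that setting only. Genes named are the targeted genes, the ISGs called in a fit, the 5 ISGs highest and lowest by change per comparison, the 10 with the highest coding RPKM, and up to 8 called pathway genes per comparison; others were chosen after their values were seen. The ISGs, their roles and the pathway list were chosen with earlier results of these data known. The 1 called pathway gene of the RACK1 comparison is counted but not reported here.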

Additional observations from a re-analysis of the deposited data

How the results depend on the processing

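With edgeR, 5 ISGs were called in RACK1-Mut, beside 0.24% of all genes in either direction. In siTARG1 edgeR called 20 ISGs and 29 of 103 other pathway genes, beside 28.8% of all genes. The pathway share was near that of all genes. With 1 library left out in turn, no ISG call held in RACK1-Mut in DESeq2. The median log2 fold change ran from -0.28 to -0.22. The called pathway gene of that comparison was also lost each time. In siTARG1 the left-out libraries gave 4 to 7 ISGs, 5 to 9 pathway genes and a median from -0.042 to 0.25. A lone library left in a group was assumed to vary like the other group. With the replicate number as a block, 2 ISGs and 0 pathway genes were called in RACK1-Mut (2 at an unadjusted p under 0.05). The block fits called 7 ISGs and 10 pathway genes in siTARG1, and 10 ISGs in the interaction. The shares of all genes called with this block are not given here. Same-numbered libraries deviated together only weakly (correlations of 0.083 and 0.031). Thinned to the lowest coding total, ISG20 (0.020), ADAR (0.014) and TRIM21 (-0.0051) changed sign in RACK1-Mut. Without 1 library at a time, log2 fold changes in RACK1-Mut spanned 0 for ISG20 (-0.17 to 0.061), IRF1 (-0.11 to 0.16), ADAR (-0.054 to 0.012), SAMD9 (-0.19 to 0.0075), TRIM21 (-0.10 to 0.13) and CMPK2 (-0.20 to 0.65), and in siTARG1 for LGALS3BP (-0.099 to 0.037), ISG15 (-0.096 to 0.12) and MX1 (-0.20 to 0.37). The cause was not tested.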
